A study of Homo sapiens with 6 samples.

Results

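The genes examined here build the membrane traffic between the endoplasmic reticulum (ER) and the Golgi apparatus other than the COPII coat itself. They were listed by name: the coatomer subunits of the COPI coat, the ARF cycle that loads and unloads it, the KDEL receptors, the p24 and lectin cargo receptors, the factors of the ER exit site, the tethers and the SNAREs. Of the 42 genes listed, 39 had a probe set named to that symbol alone and bright enough to test, out of 12839 genes tested and 19775 genes with a probe set of their own. KDELR2, TMED7 and USO1 had none, so their transcripts were not read here. The RNA came from Daoy, an established human medulloblastoma cell line, which was left untreated or exposed to 1 µM thapsigargin (Tg) for 3 h or for 8 h. Thapsigargin inhibits the calcium ATPase of the ER and sets off the unfolded protein response (UPR). Each of the 3 groups was measured on 2 oligonucleotide arrays, numbered replicate 1 and replicate 2. All arrays are of 1 cell line, the labels name no vehicle for the untreated cells, and the p-values rest on the spread between these arrays, which the paper's methods describe as 2 independent experiments.

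Cargo leaves the ER in vesicles coated with COPII, which form at exit sites, and passes to the cis side of the Golgi with the help of tethers, which catch a vesicle, and SNAREs, which fuse it with its target. COPI vesicles run the other way. The small GTPase ARF in its GTP-bound state recruits the coatomer, and the KDEL receptors ride these vesicles to bring escaped ER chaperones back. The UPR is known to expand the secretory apparatus in professional secretory cells.

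The values were signal intensities, scaled by the authors so that the trimmed mean of each array was 500, and tests were run on their log2. A log2 fold change is a difference between group means on that scale, and where 2 signals are given for a group, replicate 1 comes first. On each array the median signal lay between 69.7 and 103. A hybridization control added after RNA extraction (cre) read 51011 to 65995 in replicate 1 and 21382 to 21865 in replicate 2, and the number was taken as a batch. Each number holds all 3 groups. Adjusted p-values are therefore given from limma without this block and from the same fit with it (the blocked fit). The block leaves the fold changes as they are. As a check of the treatment, at 8 h the ER chaperone gene HSPA5 had a log2 fold change of 1.70 (adjusted p = 0.12), the chaperone gene DNAJB9 of 3.37 (adjusted p = 0.00371) and the stress factor gene DDIT3 of 4.41 (adjusted p = 0.0211), all without the block. Of 12 markers of the neural and Sonic hedgehog lineage, 9 reached a signal of 100 on 2 or more arrays, and ATOH1, HHIP and SYP did not. None of 4 immune markers reached that level. Of 5 endothelial markers 3 did, with a summed signal of 582 to 649 in untreated cells and 436 to 564 at 8 h. Of 6 fibroblast markers 5 did, with a sum of 28109.6 to 41629 in untreated cells and 21404 to 36861 at 8 h. Most of that sum was COL1A1, at 33447.7 and 23528 in untreated cells. The 5 differed in direction at 8 h, with log2 fold changes of -0.29 for COL1A1, -0.39 for COL3A1 and -0.91 for LUM. COL1A2 had 0.76 and DCN 0.16. The part of these markers in the results was not tested. The RNA came from 1 cell line, and bulk signals do not show which of its cells made a transcript.

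The promoters of these genes were read for short elements through which the UPR factors ATF6, XBP1 and ATF4 are known to act. The table of promoters given by RefSeq (GRCh38.p14), with 250 bases before to 50 bases after each gene's start, held 36 of the 42 genes. The UPR element UPRE, TGACGTGG or its reverse complement CCACGTCA, was found on either strand in 8 of those 36 genes (22.2%), against 0.927% of 27305 genes in the table and 1.24% of the 10461 tested genes in it. The sites are printed because 6 of the 8 genes belong to the retrograde arm. The capitals mark the element, the 5 bases on each side are in lower case, and all are written in the direction of the gene's transcription.
ARF1, chr1:228082687-228082704, plus strand: ggcgcTGACGTGGccgcc
COPA, chr1:160343233-160343250, minus strand: gtcgcTGACGTGGaggcg
COPB1, chr11:14499847-14499864, minus strand: cccttCCACGTCAgccaa
COPB2, chr3:139389638-139389655, minus strand: aagttCCACGTCAgtcag
COPB2, chr3:139389831-139389848, minus strand: cggcaCCACGTCAcggcc
GBF1, chr10:102245532-102245549, plus strand: agttaCCACGTCAgtgag
KDELR3, chr22:38468045-38468062, plus strand: cctggCCACGTCAccgcc
SEC16A, chr9:136484713-136484730, minus strand: tggtgCCACGTCAgccgg
STX5, chr11:62832055-62832072, minus strand: gtaggTGACGTGGccgct
By class, among the genes in the table the element stood in 6 of 14 retrograde genes, 2 of 17 anterograde genes and 0 of 5 p24 genes. It stood in 5 of the 18 genes in the table that passed the blocked fit at 8 h and in 3 of the 17 other tested genes. The longer ER stress element ERSE was in 0 of the 36 genes and in 0.0916% of all genes, and ERSE-II was in 0 and 0.0696%. Among the tested genes the shares were 0.153% for ERSE and 0.143% for ERSE-II. The last bases of both elements, CCACG, are shared with the reverse complement of UPRE. The ATF4 element TGATGNAA was in 1 of the 36 (2.78%), MCFD2, against 4.46% of all and 3.06% of the tested genes. In MCFD2 it stood as its reverse complement TTNCATCA, whose free base is in lower case: ggtcgTTtCATCAagaag at chr2:46916238-46916255 on the minus strand. Of the genes of the treatment check, HSPA5 had a match to ERSE alone and DNAJB9 to none of these elements in this window. A missing match therefore says little about the response of a gene. A match describes these letters only, and binding at none of these sites was measured here.

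At 3 h none of these genes passed an adjusted p of 0.05 against untreated cells. The median log2 fold change of the 39 was 0.15, against -0.023 over all genes tested, and 29 of them were above 0 against 46.9% of all genes. In both replicate numbers 21 were higher, against 26.8%. Neither limma without the block nor the blocked fit called any of the 39 higher or lower at an adjusted p under 0.05, where 0.0701% and 1.17% of all genes were higher and 0% and 0.0779% lower. A rebuilt form of the local pooled error test named in the paper's methods called 0 as well, against 0.319% of all genes. At an unadjusted p under 0.05, 1 was higher (GOLGA2; 3.26% of all genes) and 0 lower. Both 3 h arrays lay above both untreated arrays for 11 of the 39, against 14% of all genes, and below them for 3 (TMED3, COPG1 and ARF1), against 16.5%. The median of the 39 at 3 h was 0.074 without Tg 3 h replicate 2 and 0.035 when each array was centred on its median signal, a scaling that moved the median of all genes to -0.14.

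At 8 h most of the genes stood higher. The median log2 fold change of the 39 was 0.50, a fold of 1.41, while that of all genes was -0.093, a fold of 0.937. It was 0.58 within replicate 1 and 0.44 within replicate 2. In all 35 were above 0, against 39.9% of all genes, and 33 were higher in both replicate numbers, against 26%. Both 8 h arrays lay above both untreated arrays for 25 of the 39, against 15.3% of all genes, and below them for 1 (TMED3), against 26.7%. In the blocked fit 20 of the 39 rose at an adjusted p under 0.05 and 0 fell, against 4.76% and 3.79% of all genes. In limma without the block 0 passed, against 0.646% of all genes, and the unadjusted p was under 0.05 for 17 higher and 0 lower genes, against 5.44% and 6.64%. The rebuilt local pooled error test called 0 higher, against 1.14%. "Rose" is used below for the 20 genes of the blocked fit.

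The count of 20 leaned on single arrays. It was 6 without untreated replicate 1 (2.12% of all genes then rose), 11 when untreated replicate 2 was left out (3.94%) and 8 when Tg 8 h replicate 1 was (2.74%). The count fell less when Tg 8 h replicate 2 or either 3 h array was left out, with a share of all genes near that of the main fit. It was 0, with 0% of all genes, when the spread was not allowed to follow the intensity. ARCN1, SURF4, GORASP2 and TFG passed with each array left out in turn, whereas TMED10 passed with 0 of the 6 left out.

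**Figure D1:**
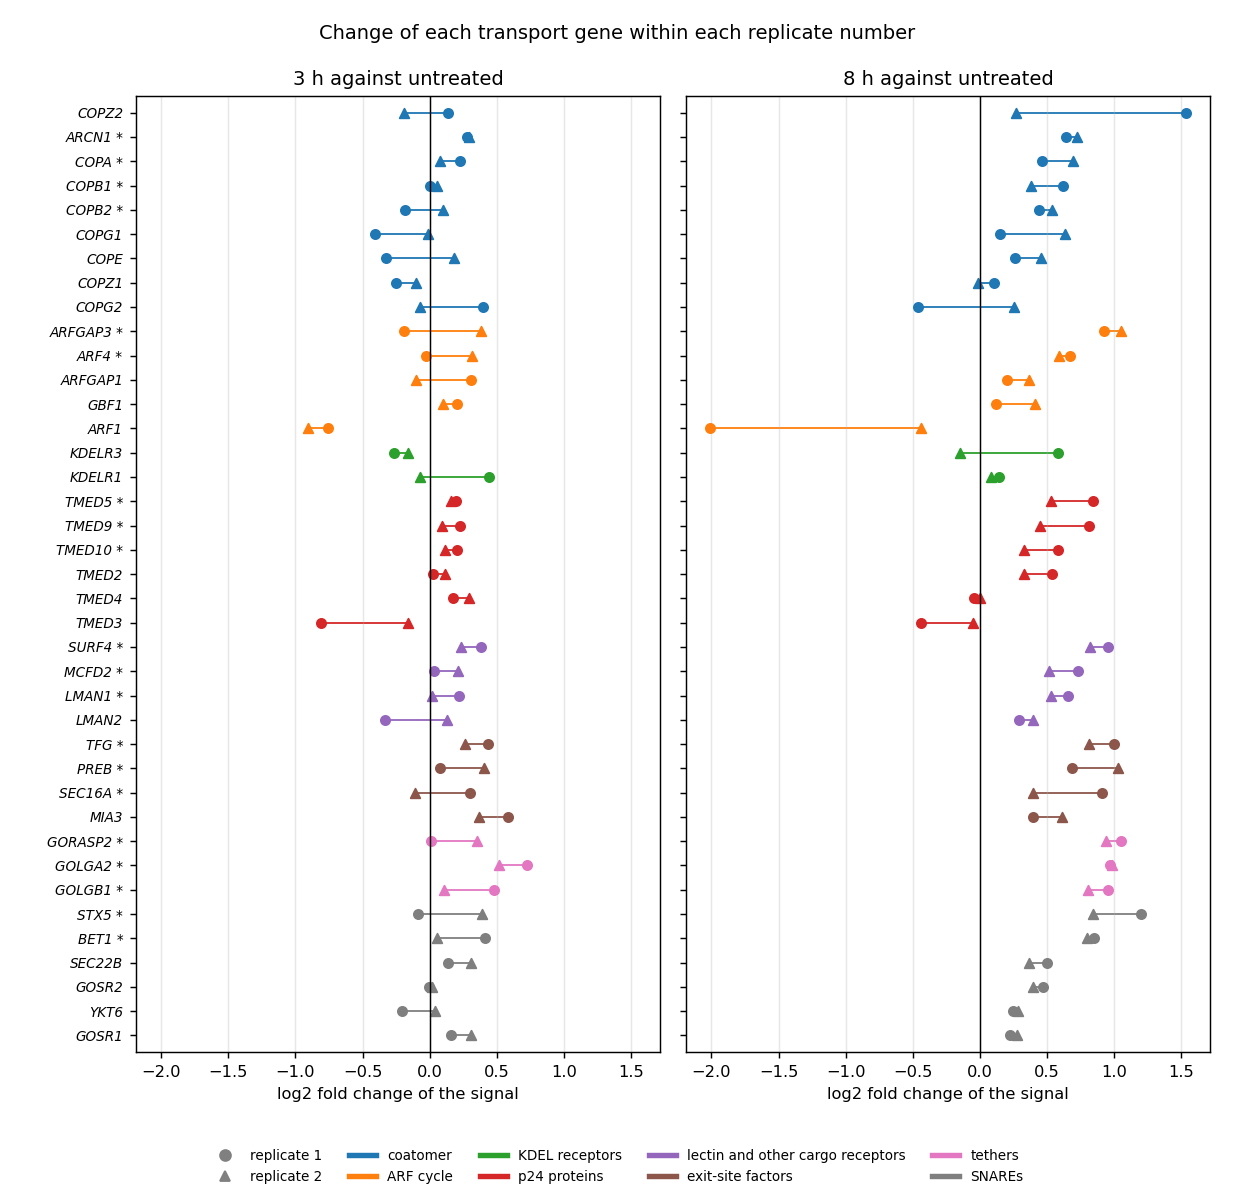
Log2 fold change of the signal against untreated cells (x axis) for the 39 genes tested (rows, coloured by role), within replicate 1 (circles) and within replicate 2 (triangles), at 3 h on the left and 8 h on the right; a line joins the 2 values of a gene and a star marks the 20 genes that rose at 8 h in the blocked fit. At 8 h 33 genes lie right of 0 in both replicate numbers, while at 3 h 21 do.

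The coatomer is the COPI coat itself, a complex that is recruited to Golgi membranes as a whole. Of its 9 subunit genes 4 rose at 8 h and their median log2 fold change was 0.49. ARCN1, the delta subunit, had the lowest adjusted p in the blocked fit among them. Its signal was 3876 and 4982 in untreated cells, 4689.7 and 6115 at 3 h and 6044 and 8226 at 8 h. Both 8 h arrays lay above both untreated arrays and Tg 8 h replicate 1 was just below Tg 3 h replicate 2, with a log2 fold change at 8 h of 0.68 and a standard error of 0.25 (adjusted p = 0.415 without the block, 0.00683 with it). COPA encodes the alpha subunit, and its promoter holds one of the elements printed above. Its signal was 1794 and 1738 in untreated cells, 2094 and 1829 at 3 h and 2465 and 2815 at 8 h. The groups did not overlap, and the log2 fold change was 0.58, with a standard error of 0.20 (adjusted p = 0.348 without the block, 0.0454 with it). COPB1 is the beta subunit, and it too has the element. Its signal was 11475 and 11531 in untreated cells, 11487 and 11988 at 3 h and 17626 and 15002 at 8 h. The untreated and 3 h arrays overlapped and both 8 h arrays stood above them, by 0.50 on the log2 scale (adjusted p = 0.49 without the block, 0.035 with it). COPB2, the beta prime subunit, whose promoter has the element at 2 places, read 3919 and 4778 in untreated cells, 3450.0 and 5106 at 3 h and 5301 and 6933 at 8 h. In each replicate number its 8 h array was the highest, and the log2 fold change was 0.49 (adjusted p = 0.605 without the block, 0.047 with it). COPA and COPB2 were close to the threshold. With dim probe sets tested too, COPA, COPB1 and COPB2 did not pass the blocked fit (adjusted p = 0.0536, 0.0511 and 0.0622). After median centring COPA passed (0.0337), while COPB1 and COPB2 did not (0.0697 and 0.0725). ARCN1 passed in both settings (0.00607 and 0.0113).

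The other 5 subunits did not pass at 8 h in either fit. COPE, the epsilon subunit, had a log2 fold change of 0.36 (0.26 in replicate 1 and 0.45 in replicate 2) and overlapping groups. COPG1, a gamma subunit, read 511 and 442 in untreated cells, 385 and 438 at 3 h and 565 and 685 at 8 h. Both 3 h arrays were below and both 8 h arrays above the untreated arrays, with log2 fold changes of -0.21 and 0.39 that did not pass (in the blocked fit adjusted p = 0.745 and 0.343). The paralogue COPG2 had -0.10 at 8 h, with -0.46 in replicate 1 and 0.26 in replicate 2. Of the zeta subunits, COPZ1 had 0.044 with a second probe set at -0.15, and COPZ2 had 0.90 with a standard error of 0.73. COPZ2 was dim, at 50.4 and 156 in untreated cells and 146 and 188 at 8 h, and its groups overlapped.

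In the ARF cycle an exchange factor loads ARF with GTP, which brings the coat to the membrane, and GTPase-activating proteins end that state. Of its 5 genes 2 rose, and the median log2 fold change was 0.28. ARFGAP3, a GTPase-activating protein that acts on ARF1, had the highest log2 fold change of the retrograde arm. Its signal was 1121 and 989.7 in untreated cells, 983 and 1289 at 3 h and 2124 and 2045 at 8 h. The untreated and 3 h arrays overlapped and both 8 h arrays were clear of them, with a log2 fold change at 8 h of 0.98 and a standard error of 0.22 (adjusted p = 0.123 without the block, 0.0092 with it). ARF4 encodes another member of the ARF family. Its signal was 16070.3 and 12825 in untreated cells, 15728 and 15989 at 3 h and 25552 and 19297 at 8 h. The 8 h arrays lay above all others, at a log2 fold change of 0.63 (adjusted p = 0.454 without the block, 0.0188 with it). GBF1, the exchange factor of ARF at the cis-Golgi, has the element in its promoter. GBF1 read 594 and 633 in untreated cells and 645 and 841 at 8 h, and ARFGAP1 read 718 and 903 in untreated cells and 824 and 1164 at 8 h. Their log2 fold changes were 0.27 and 0.28 and did not pass in the blocked fit (adjusted p = 0.472 and 0.441). ARF1 also has the element in its promoter. It could be read from 1 dim probe set alone, since its brighter ones are named to another gene as well. Its signal was 94.3 and 139 in untreated cells, 55.7 and 73.8 at 3 h and 23.4 and 102 at 8 h. With signals of this size its log2 fold change of -1.22 at 8 h had a standard error of 0.92, and the groups overlapped.

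The KDEL receptors bind the KDEL sequence at the end of ER chaperones. KDELR1 and KDELR3 were tested and neither passed in either fit. The signal of KDELR1 was 3109 and 5196 in untreated cells, 4230.4 and 4950.1 at 3 h and 3438 and 5508 at 8 h. In every group the replicate 2 array was higher than the replicate 1 array, and the groups overlapped, with a log2 fold change at 8 h of 0.11 and a standard error of 0.32 (adjusted p = 0.967 without the block, 0.728 with it). Within replicate numbers the log2 fold change of KDELR1 was 0.14 in replicate 1 and 0.084 in replicate 2. A second, dimmer KDELR1 probe set had 0.056 at 8 h (adjusted p = 0.893 in the blocked fit). On that probe set the replicate 1 array was the higher one in every group. KDELR3 has the element in its promoter. Its signal was 513 and 844 in untreated cells, 427 and 754 at 3 h and 766 and 761 at 8 h. At 8 h KDELR3 was above untreated in replicate 1 and below it in replicate 2 (0.58 and -0.15), with a log2 fold change of 0.21 and a standard error of 0.35 (adjusted p = 0.919 without the block, 0.663 with it). In the blocked fit the log2 fold change at 8 h was -0.029 for KDELR1 and 0.058 for KDELR3 without untreated replicate 1, and 0.21 and -0.17 without Tg 8 h replicate 1.

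**Figure D2:**
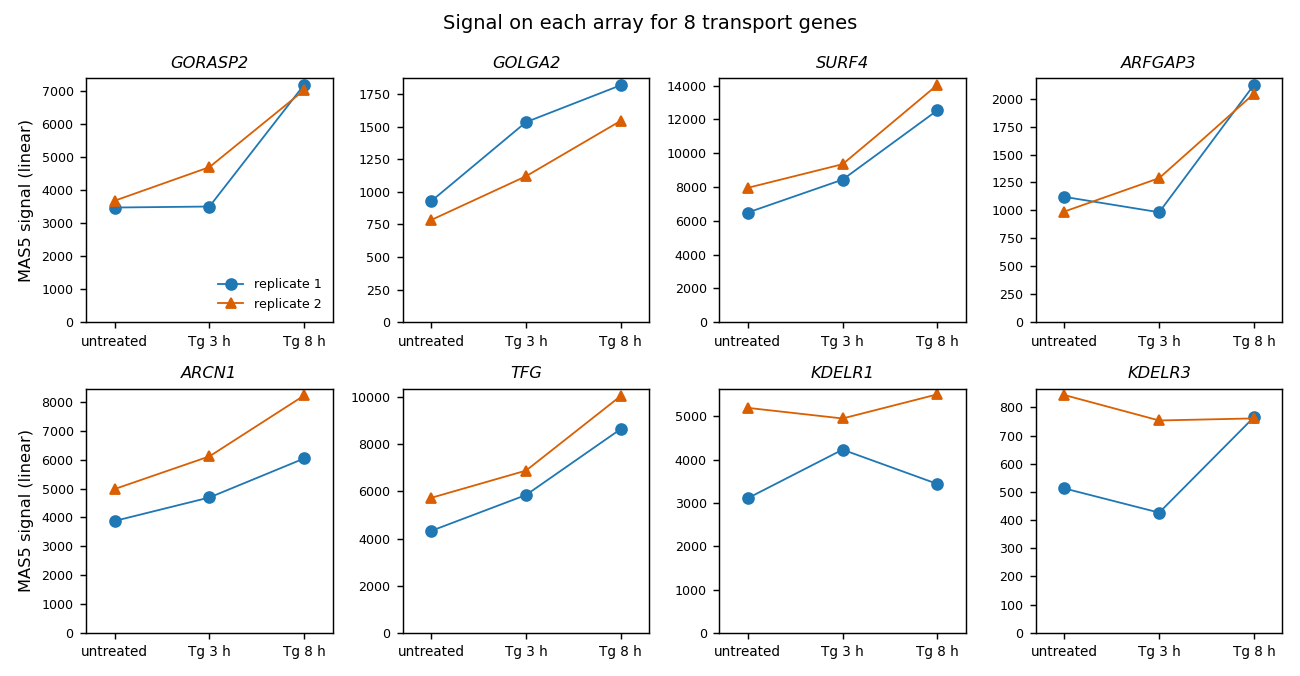
MAS5 signal on a linear scale (y axis, from 0) on each of the 6 arrays for 6 genes that rose at 8 h and for the receptors KDELR1 and KDELR3; circles are replicate 1, triangles replicate 2, and lines join arrays of one number. For GORASP2, GOLGA2, SURF4, ARFGAP3, ARCN1 and TFG both 8 h arrays lie above both untreated arrays, while for KDELR1 and KDELR3 the groups overlap.

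The p24 proteins, encoded by the TMED genes, are small membrane proteins that bind both coats and cycle in both directions. Of 6 tested, 3 rose at 8 h and the median log2 fold change was 0.44. The signal of TMED5 was 7584 and 9154 in untreated cells, 8672 and 10205 at 3 h and 13556 and 13229.6 at 8 h. Both 8 h arrays lay above all others, with a log2 fold change at 8 h of 0.68 and a standard error of 0.22 (adjusted p = 0.303 without the block, 0.00911 with it). That of TMED9 was 10714 and 10596 in untreated cells, 12556 and 11312 at 3 h and 18826 and 14405 at 8 h. The groups did not overlap and the log2 fold change was 0.63, with 0.81 in replicate 1 and 0.44 in replicate 2 (adjusted p = 0.394 without the block, 0.0151 with it). TMED10 read 10471 and 10195 in untreated cells, 12071 and 11015 at 3 h and 15692 and 12809.7 at 8 h. Its groups were also separate, at a log2 fold change of 0.46, and the adjusted p in the blocked fit was close to the threshold, at 0.0444 (0.542 without the block). TMED2, which pairs with TMED10, had 0.43 with both 8 h arrays above both untreated arrays and did not pass (adjusted p = 0.0604 in the blocked fit). Of its dimmer probe sets, one had 0.74 and passed in the blocked fit (adjusted p = 0.0359), and another had 0.57 and did not (0.147). The values of TMED3 and TMED4 at 8 h were below 0. TMED3 read 2237 and 2050.4 in untreated cells, 1274 and 1833 at 3 h and 1652 and 1981 at 8 h, below untreated on all 4 treated arrays, with a log2 fold change at 8 h of -0.24 that did not pass in either fit (adjusted p = 0.472 in the blocked fit) and other probe sets at -0.38 and 0.27. Without untreated replicate 1 its value in the blocked fit was 0.016. TMED4 had -0.023 and groups that overlapped. Its other tested probe sets had -0.48, -0.42 and -0.29 and did not pass in either fit.

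Cargo receptors hold secretory proteins for packaging at the ER. Of the 4 lectin and other receptors 3 rose at 8 h, with a median log2 fold change of 0.61. SURF4 exports soluble secretory proteins. Its signal was 6486 and 7950.4 in untreated cells, 8435 and 9349 at 3 h and 12539.5 and 14048 at 8 h. All 4 treated arrays lay above both untreated arrays and the 8 h arrays above the 3 h arrays, with a log2 fold change at 8 h of 0.89 and a standard error of 0.22 (adjusted p = 0.164 without the block, 0.00156 with it), the lowest adjusted p among the 39 in the blocked fit. LMAN1, a mannose-binding lectin, forms with MCFD2 the receptor for coagulation factors. Its signal was 4749.8 and 5144 in untreated cells, 5526 and 5219 at 3 h and 7475 and 7415 at 8 h. The 8 h arrays were nearly equal and above all others, and the log2 fold change was 0.59 (adjusted p = 0.313 without the block, 0.0163 with it). MCFD2 read 7405 and 7046 in untreated cells, 7553 and 8146 at 3 h and 12290.0 and 10073 at 8 h, with no overlap of the groups. The 2 partners had close log2 fold changes, 0.62 for MCFD2 (adjusted p = 0.339 without the block, 0.0183 with it), though a second LMAN1 probe set gave 0.15. LMAN2, a lectin of the early secretory pathway, had 0.34 with its 8 h arrays above the untreated ones and did not pass (adjusted p = 0.237 in the blocked fit).

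Exit-site factors set where COPII forms, and 3 of 4 rose at 8 h, with a median log2 fold change of 0.75. PREB is the exchange factor that activates SAR1, the GTPase of COPII. Its signal was 1142 and 1080.0 in untreated cells, 1205 and 1429 at 3 h and 1840.3 and 2196 at 8 h. The arrays of the 3 groups did not overlap, with a log2 fold change at 8 h of 0.86 and a standard error of 0.21 (adjusted p = 0.165 without the block, 0.0103 with it). TFG assembles at the exit site. Its signal was 4324 and 5725 in untreated cells, 5846 and 6881 at 3 h and 8648 and 10050.1 at 8 h. Here too the groups were stepped without overlap, with a log2 fold change at 8 h of 0.91 and a standard error of 0.23 (adjusted p = 0.185 without the block, 0.00174 with it). However, the second, dimmer probe set of TFG had 0.094. With the mean of its probe sets TFG had 0.50 and did not pass in the blocked fit (adjusted p = 0.173). SEC16A, the scaffold of the exit site, carries the element in its promoter. Its signal was 1297 and 2171 in untreated cells, 1600.4 and 2013 at 3 h and 2433 and 2854 at 8 h. The untreated arrays were far apart and both 8 h arrays were above them, with 0.91 in replicate 1 and 0.39 in replicate 2 (adjusted p = 0.5 without the block, 0.0402 with it). Its log2 fold change of 0.65 became 0.42 in the blocked fit without untreated replicate 1. MIA3, which helps to export collagen, had 0.47 at 3 h and 0.50 at 8 h and passed at neither (in the blocked fit adjusted p = 0.334 and 0.132).

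The tethers had the highest median of any role, a log2 fold change of 0.98, and 3 of 3 tested rose at 8 h. GORASP2, which stacks and links Golgi cisternae, had the lowest adjusted p among the 39 without the block. Its signal was 3472 and 3678 in untreated cells, 3502 and 4696 at 3 h and 7197 and 7032 at 8 h. Both 8 h arrays stood apart from the other 4, with a log2 fold change at 8 h of 0.99 and a standard error of 0.21 (adjusted p = 0.111 without the block, 0.00277 with it) and a fold of 1.99. GOLGA2 is the cis-Golgi golgin to which the vesicle tether USO1 binds. Its signal was 928 and 783 in untreated cells, 1534 and 1119 at 3 h and 1818 and 1545 at 8 h. It was the only gene of the 39 higher at 3 h at an unadjusted p under 0.05, with 0.62 at 3 h and 0.98 at 8 h, and the 8 h arrays lay above both 3 h arrays (adjusted p at 8 h = 0.165 without the block, 0.005 with it). GOLGB1, or giantin, is a long golgin of the Golgi rim. Its signal was 538 and 1041 in untreated cells, 749 and 1122 at 3 h and 1041 and 1821 at 8 h. Its groups overlapped, since untreated replicate 2 was level with Tg 8 h replicate 1, but the log2 fold change was 0.95 in replicate 1 and 0.81 in replicate 2 (adjusted p = 0.523 without the block, 0.0134 with it). Of the probe sets of these genes, the 3 of GORASP2 had log2 fold changes of 0.93 to 0.99 at 8 h and the 4 of GOLGA2 of 0.93 to 1.13.

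SNAREs fuse vesicles with their target, and STX5, GOSR2, BET1 and SEC22B form the set that acts between the ER and the cis-Golgi. Of the 6 SNARE genes 2 rose at 8 h, with a median log2 fold change of 0.43. STX5 is the syntaxin of the set and its promoter has the element. Its signal was 333 and 419 in untreated cells, 314 and 549 at 3 h and 764 and 748 at 8 h. Both 8 h arrays lay above all others, with a log2 fold change at 8 h of 1.02 and a standard error of 0.32 (adjusted p = 0.292 without the block, 0.0354 with it), the highest fold of the 39 (2.03). The signal of BET1 was 1263 and 2174 in untreated cells, 1678 and 2257 at 3 h and 2279 and 3773 at 8 h. Replicate 2 was higher than replicate 1 in every group, both 8 h arrays lay above the others, and the log2 fold change was 0.85 in replicate 1 and 0.80 in replicate 2 (adjusted p = 0.481 without the block, 0.00895 with it). GOSR2 and SEC22B both had 0.43 and did not pass (in the blocked fit adjusted p = 0.102 and 0.058). The 8 probe sets of GOSR2 ran from -0.030 to 1.87. SEC22B read 21421 and 12039.6 in untreated cells and 30249 and 15495 at 8 h, so that its replicate numbers lay farther apart than its groups. GOSR1 and YKT6, SNAREs that also act within the Golgi, had 0.25 and 0.26. All 6 SNAREs were higher at 8 h in both replicate numbers.

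Where a gene had several probe sets bright enough to test, they were compared. This was so for 25 of the 39 genes, and in 21 of them all probe sets had the same sign at 8 h. The exceptions were COPZ1, GOSR2, KDELR3 and TMED3, none of which rose. Of the 20 genes that rose, 13 had several probe sets, with the same sign in all 13, though TFG and LMAN1 had probe sets at 0.094 and 0.15. These genes were picked by the rise of their brightest probe set, which favours agreement. The agreement over all genes was not computed, so this is no separate support. Over the 84 tested probe sets of the 39 genes, 73 were above 0 at 8 h, against 40.9% of all tested probe sets, and in the blocked fit 31 rose and 0 fell, against 3.79% and 2.8%.

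The retrograde genes were then set against the anterograde ones. Retrograde means the coatomer, the ARF cycle and the KDEL receptors, and anterograde the cargo receptors apart from the p24 proteins, the exit-site factors, the tethers and the SNAREs, although several of the SNAREs and tethers also serve retrograde traffic. At 8 h 6 of 16 retrograde genes, 11 of 17 anterograde genes and 3 of 6 p24 genes rose in the blocked fit, beside the 4.76% of all genes given above. The medians were 0.37 for the retrograde, 0.65 for the anterograde and 0.44 for the p24 genes. The retrograde median was below the anterograde one, with a difference of -0.28 on the log2 scale, -0.38 within replicate 1 and -0.21 within replicate 2. All 17 anterograde genes were higher at 8 h in both replicate numbers, as were 12 of the 16 retrograde genes. The counts moved with single arrays: the retrograde and anterograde genes that rose numbered 2 and 4 without untreated replicate 1, 1 and 8 when untreated replicate 2 was left out, and 2 and 6 when Tg 8 h replicate 1 was. The counts also moved with the processing of the blocked fit. With no filter they were 3 and 11 (2.86% of all genes rose) and after median centring 4 and 11 (5.2%). They were 5 and 10 with the mean of probe sets (3.51%) and 6 and 10 with a floor of 100 (4.47%). After quantile normalization they were 6 and 12 (4.93%), as with a signal of at least 200 (6.39%). Without the intensity trend both were 0 (0%). No test was made between the classes, whose members were listed with results of these data known.

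At 3 h the retrograde median was 0.062 and the anterograde median 0.22, with a difference of -0.16 (-0.17 within replicate 1 and -0.21 within replicate 2). Of the retrograde genes 9 of 16 were above 0 and of the anterograde genes 15 of 17. In the fit without the block, the difference was -0.26 without Tg 3 h replicate 1. Between 8 h and 3 h it was -0.076, and -0.22 without Tg 3 h replicate 1. The 3 h and 8 h comparisons share the untreated arrays.

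**Figure D3:**
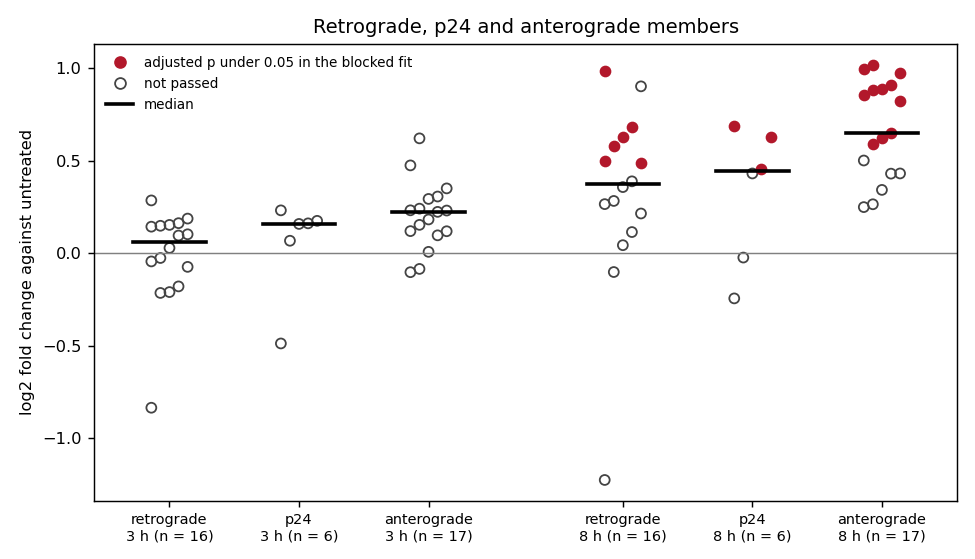
Log2 fold change against untreated cells (y axis) of each tested gene in the retrograde, p24 and anterograde classes, at 3 h and at 8 h; filled points passed an adjusted p of 0.05 in the blocked fit, open points did not, and bars are class medians. At 8 h the medians are 0.37, 0.44 and 0.65, and the low retrograde point is the dim ARF1 at -1.22.

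The later time was also compared with the earlier one directly. Between 8 h and 3 h the median log2 fold change of the 39 genes was 0.43, against -0.061 over all genes. In all 35 were above 0, against 42.5%, and 31 in both replicate numbers, against 25.6%. Both 8 h arrays lay above both 3 h arrays for 27 of them, against 14% of all genes, and below for 0, against 22.6%. Limma without the block called 0 of the 39, as it did 0% of all genes, and the unadjusted p was under 0.05 for 10 higher genes and 0 lower ones (2.77% and 5.05% of all genes). The rebuilt local pooled error test called 0, against 0.179% of all genes higher and 0.156% lower. In the blocked fit 4 genes were higher at 8 h than at 3 h and 0 lower, against 1.53% and 1.72% of all genes. They were GORASP2 with 0.81 (adjusted p = 0.019), SURF4 with 0.58 (0.0288), ARFGAP3 with 0.89 (0.0313) and TFG with 0.56 (0.0395). This count was 0 without Tg 3 h replicate 1, 0 without Tg 8 h replicate 1 and 2 without Tg 3 h replicate 2. Centring each array on its median raised it to 12, and that scaling moved the median of all genes to 0.14. The share of all genes called under these settings is not given here, so the shifts cannot be read as particular to the 39.

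The rest of the ER-Golgi machinery was read from 83 further genes, of which 78 were tested. Their median log2 fold change was -0.011 at 3 h and 0.16 at 8 h. At 8 h limma without the block called 2 higher and 0 lower (0.646% and 0.21% of all genes), and the blocked fit 13 higher and 1 lower (4.76% and 3.79%). The 2 were the COPII coat genes SEC23B and SEC24D, which package cargo at the exit site. SEC24D read 299.5 and 493 in untreated cells, 501 and 899.5 at 3 h and 2502 and 2334 at 8 h, a log2 fold change of 2.65 with a standard error of 0.34 (adjusted p = 0.0217 in limma without the block), and SEC23B had 1.55 (adjusted p = 0.0196). In the blocked fit 6 of 10 COPII genes rose, with a median of 0.55. Of the 7 genes of the NRZ tether and the SNAREs that receive COPI vesicles at the ER, 0 changed in the blocked fit and their median was 0.20. Of the 18 TRAPP, RAB and SLY1 genes 1 rose, the GTPase RAB1A with 0.59, a share close to that of all genes. Of 13 other cargo receptors and relatives, YIPF5 (0.64) and MIA2 (1.27) rose and YIF1A (-0.81) fell in the blocked fit. Of 7 further ARF genes, ARL1 rose (0.70), and at 3 h ARF6 did (0.65), when 1.17% of all genes rose. Of 14 COG subunits and golgins 3 rose, GOLGA5 with 1.28, GOLGA4 with 0.95 and COG3 with 0.93. None of 9 later Golgi SNARE genes did. The genes named here from the blocked fit alone were chosen after their values were seen.

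**Figure D4:**
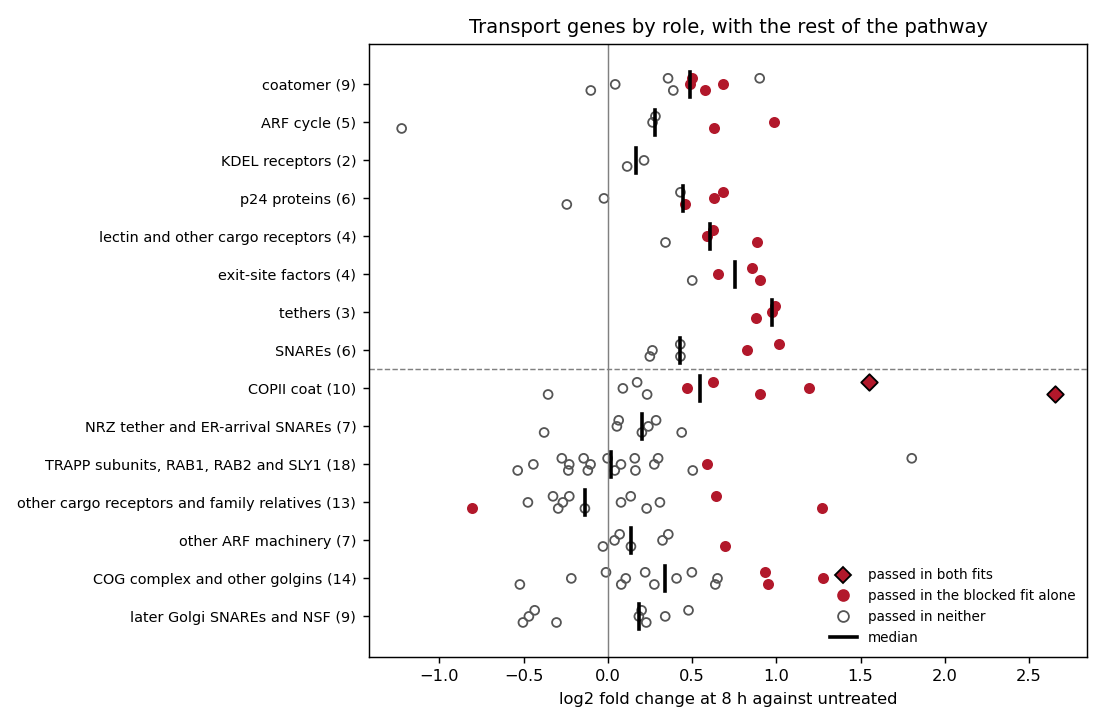
Log2 fold change at 8 h against untreated cells (x axis) of each tested gene, by role (rows, with the number tested), for the listed genes above the dashed line and for the rest of the pathway below it; diamonds passed in both fits, filled circles in the blocked fit alone, open circles in neither, and bars are medians. Tethers have the highest median, 0.98, and the 2 diamonds are the COPII genes SEC23B and SEC24D.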

How the data were processed

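RNA was measured on 6 arrays, 2 each for untreated Daoy cells and for 3 h and 8 h of 1 µM thapsigargin. The authors deposited signal intensity values from MAS5, per the labels and the paper's methods, on a linear scale with a 2% trimmed mean scaled to 500, for 54675 probe sets. The files name no genome build. Probe sets were named through the platform annotation: 41097 had 1 symbol, 1801 several and 11777 none. Signals were log2-transformed. Probe sets that reached 100 on 2 or more arrays (27616) were tested with limma 3.58.1 in R 4.3.3 (all 6 arrays, group as the term, eBayes with an intensity trend, two-sided, Benjamini-Hochberg over all tested). A gene was read from its own probe set with the highest mean log2 signal. The blocked fit adds the replicate number. Arrays of one number deviated together, with correlations across probe sets of 0.26 to 0.32 between groups. The correlations were 0.66 to 0.70 for probe sets with a mean signal of at least 500 and 0.47 to 0.78 for the tested members. The cre and 18S controls separated the numbers (18S 853 to 1220 on replicate 1 and 3544 to 4535 on replicate 2). For these reasons the number was treated as a batch. The paper's methods speak of independent experiments, and the labels do not say that the number marks them. The precision is limited by the number of arrays.

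The members, the gene lists and the motifs were chosen with earlier results of these data known. Genes given in full were those called at either time in either fit, at most 20, and the KDEL receptors; elsewhere, up to 4 per list called without the block. Alternatives were the block, a rebuilt local pooled error test (the test of the paper's methods), no intensity trend, quantile normalization, median centring, no filter, at least 200, a floor of 100, a pseudocount of 50, the 4 arrays compared, each array left out, the mean of a gene's probe sets, and other class borders. The rebuilt local pooled error test may not give the same calls as the authors' own run. Fits were tested on simulated data. Promoters were searched with Python 3.11.15 and pandas 2.3.3. Planned protein features were not computed, and figures were drawn with matplotlib 3.10.9.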

Additional observations from a re-analysis of the deposited data

Results flagged for a closer look

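For COPG1 the 2 times pointed in opposite directions: both 3 h arrays were below and both 8 h arrays above the untreated arrays. Between 8 h and 3 h its log2 fold change was 0.60, and the test of that difference did not pass (adjusted p = 0.733 in limma and 0.206 with the replicate block). The 2 comparisons share the untreated arrays. For 4 other genes the 8 h level differed from the 3 h level in limma with the replicate block: ARFGAP3 by 0.89, GORASP2 by 0.81, SURF4 by 0.58 and TFG by 0.56 on the log2 scale, higher at 8 h in both replicate numbers. None of these 4 passed without the block, where their adjusted p was 0.419, 0.442, 0.676 and 0.727. No group had enough arrays to test a single array against the others.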

How the results depend on the processing

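The counts of genes called at 3 h and of genes called lower at either time stayed at 0 under the alternatives run. With the replicate block, which pairs arrays by number, 20 of the 39 genes were higher at 8 h and 4 between 8 h and 3 h, against 0 without it; it changed no median. Combinations of the block with other settings were chosen after seeing the data. With the block, dropping the intensity trend gave 0 and 0, and leaving out an array gave 6 to 19 at 8 h (11 without untreated replicate 2, 8 without Tg 8 h replicate 1) and 0 to 5 between the times (2 without Tg 3 h replicate 2). At 8 h the blocked count was 16 with no filter (2.86% of all genes) and with the mean of probe sets (3.51%). It was 17 after median centring (5.2%) and 22 after quantile normalization (4.93%). Between the times the blocked count was 7 after quantile normalization, 12 after median centring and 8 with the 4 arrays compared. The share of all genes called between the times is given for the main blocked fit alone. The counts between the times can therefore not be read as particular to the 39 genes. The cause of these shifts was not tested.

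The median of the 39 genes at 3 h (0.15) was 0.035 after median centring, 0.10 with the mean of all probe sets and 0.074 to 0.15 with an array left out, and that between 8 h and 3 h (0.43) was 0.63 after centring. The retrograde minus anterograde difference at 3 h (-0.16) was -0.12 with a signal of at least 200, -0.19 with the mean of probe sets, -0.12 without tethers and SNAREs, -0.11 with the p24 genes counted as anterograde and -0.26 to -0.12 with an array left out. Between 8 h and 3 h (-0.076) it was -0.16 with the mean of probe sets and -0.22 to -0.039 with an array left out. At 8 h the median was 0.48 to 0.55 and the class difference -0.35 to -0.21 with an array left out. Dim probe sets limit ARF1 and COPZ2.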
